A study of Mus musculus with 8 samples.

Results

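The Ikaros family of zinc finger transcription factors was followed through B-cell development in mouse bone marrow, together with the circular RNAs (circRNAs) assigned to its genes. The members were the mRNA table's genes Ikzf1 (encoding Ikaros), Ikzf2 (Helios), Ikzf3 (Aiolos) and Ikzf5 (Pegasus), 4 of the 22298 genes listed, and every circRNA assigned to them, 5 of 1005. Ikzf4 (Eos), the remaining gene of the family, was listed with 0 counts in every library. The members were chosen by measured values, namely the gain of reads from stage to stage in novel_circ_000420, a circRNA of Ikzf1 exons, and the CPM differences of the mRNAs between stages, so those values are given as a description and no test was applied to them.

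Cells came from wild type female C57BL/6 mice aged 8 to 10 weeks and were separated by flow cytometry. The gates were B220+IgM-CD43+ for pro-B cells, B220+IgM-CD43- for pre-B cells, B220+IgM+CD43- for immature B cells and B220hi IgM+CD43- for mature B cells. The cells of 3 mice were pooled in each stage and 1 rRNA-depleted RNA library was sequenced from the pool, so the 4 libraries hold no replicates and no difference below has a replicate check. Intervals are exact 95% intervals of the counts. They cover counting error only, since each stage has 1 library. No molecular identifiers are described, so duplicate reads cannot be told apart and the intervals may be too narrow.

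Ikaros family proteins bind DNA through zinc fingers near one end of the protein and pair with each other through zinc fingers at the other end. Ikaros and Aiolos recruit chromatin remodelling and histone deacetylase complexes, and mice without Ikaros make no B cells, whereas Aiolos is known for its part in later B-cell maturation. Helios is best known from T cells and early blood progenitors, and Pegasus is the most divergent member. A circRNA forms when the end of an exon is joined backward to the start of the same or an earlier exon, and it is counted by reads that cross this junction.

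RefSeq promoter windows, from 250 bases before to 50 bases after a transcript's start on GRCm38.p6, were found for 2 of the 5 genes and are shown for Ikzf1, which gives rise to novel_circ_000420, and for Ikzf5, whose mRNA, like that of Ikzf1, was highest in pro-B cells. GGGAA, the core letters of the Ikaros binding motif, and its reverse complement TTCCC stand in capitals.
Ikzf1, chr11:11685675-11685974, plus strand: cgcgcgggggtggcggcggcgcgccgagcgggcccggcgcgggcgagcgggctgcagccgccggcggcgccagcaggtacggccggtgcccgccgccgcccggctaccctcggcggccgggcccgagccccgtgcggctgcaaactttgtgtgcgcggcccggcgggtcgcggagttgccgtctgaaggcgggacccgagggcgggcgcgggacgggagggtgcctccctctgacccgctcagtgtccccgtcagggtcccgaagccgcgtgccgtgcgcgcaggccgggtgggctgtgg
Ikzf1, chr11:11689927-11690226, plus strand: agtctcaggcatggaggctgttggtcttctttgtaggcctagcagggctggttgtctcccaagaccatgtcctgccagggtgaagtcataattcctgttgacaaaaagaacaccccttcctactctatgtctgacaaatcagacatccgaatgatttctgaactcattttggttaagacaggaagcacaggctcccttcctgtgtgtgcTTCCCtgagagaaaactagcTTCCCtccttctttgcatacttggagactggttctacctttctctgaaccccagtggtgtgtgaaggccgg
Ikzf5, chr7:131410429-131410728, minus strand: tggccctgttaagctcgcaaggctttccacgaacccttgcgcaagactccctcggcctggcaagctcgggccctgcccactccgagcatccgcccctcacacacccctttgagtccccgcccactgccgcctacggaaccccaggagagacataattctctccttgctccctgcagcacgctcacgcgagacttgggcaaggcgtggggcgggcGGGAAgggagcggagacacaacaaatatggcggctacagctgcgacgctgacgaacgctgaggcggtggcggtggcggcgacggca
The first Ikzf1 window held 0 matches and was 81.3% G or C. The second held 2 matches at 49% G or C. The Ikzf5 window held 1 match at 65.7% G or C. Over all 32851 promoter windows of this length, 62.7% held at least 1 match on either strand and the median G or C content was 52.7%, so a match is common and describes the letters alone.

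The mRNA table held 867920, 240231, 223495 and 849350 estimated counts in stage order, which runs from pro-B through pre-B and immature B to mature B cells. These were 23.7%, 6.48%, 6.48% and 23.5% of the mRNA and long noncoding RNA (lncRNA) counts together. The pro-B and mature B libraries were therefore alike in mRNA depth, while comparisons with the pre-B and immature B libraries depended on the total to which counts were scaled. Levels are given as CPM, the count scaled to the mRNA total of the library, and 3 counts corresponded to 3.46, 12.5, 13.4 and 3.53 CPM in stage order. FPKM values, which the authors scaled by transcript length and mapped fragments, are given beside them. All 5 B-lineage markers had counts in every library, with summed levels between 3993 and 5706 CPM. The summed level of 5 pro-B markers fell from 2081 CPM in the pro-B library to 142, 44.7 and 11.8 CPM. Igll1 and Vpreb1, components of the surrogate light chain, were at 0 in the pre-B library. The 5 immature and mature B markers summed to 3960, 7305, 9019 and 7315 CPM and differed in their order of stages. Fcer2a, encoding CD23, had 358 counts in the mature B library and none elsewhere, and Ighd and Cr2 were also highest there. In contrast, Ighm had 3775, 7147, 7816 and 3902 CPM, and Ms4a1 had 104, 41.6, 1016 and 792 CPM. The 3 pre-B markers summed to 1096, 772, 121 and 8.24 CPM and also differed in their order of stages. Rag1, with 918 CPM in pro-B and 372 CPM in pre-B cells, made up most of the pro-B sum. By CPM, Rag2 with 109 and 316 and Il2ra with 68.0 and 83.3 were highest in the pre-B library. By FPKM all 3 were highest in the pro-B library. The 5 myeloid markers summed to between 790 and 1049 CPM, with none at 0 in any library, and the 4 erythroid markers to between 85.0 and 259 CPM. The part of these cells in the results was not tested, and in pooled sorted cells fewer cells of a type and less RNA per cell cannot be told apart.

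Ikzf1, which encodes Ikaros itself, had 674, 115, 83.0 and 458 counts in stage order. Its level was 777 CPM (719 to 837), 480 CPM (395 to 575), 371 CPM (296 to 460) and 539 CPM (491 to 591). The pro-B library was highest and its interval did not overlap that of any other stage, while the intervals of pre-B and immature B cells overlapped, as did those of pre-B and mature B cells. Relative to pro-B cells, the Ikzf1 level in mature B cells was 0.694-fold, a log2 ratio of -0.53 (-0.70 to -0.35). The median log2 ratio of all genes tested in this comparison was -0.18. Ranked by counts within its own library, a measure that needs no scaling between libraries, Ikzf1 was number 111 in pro-B, 245 in pre-B, 329 in immature B and 250 in mature B cells. Its FPKM values of 49.86, 6.97, 7.45 and 25.61 also placed pro-B cells first, and put pre-B and immature B cells close together.

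Ikzf3, encoding Aiolos, had 233, 87, 113 and 800 counts in stage order. Its level was 268 CPM (235 to 305), 362 CPM (290 to 447), 506 CPM (417 to 608) and 942 CPM (878 to 1009). On this scale each stage was higher than the one before, with overlapping intervals between pro-B and pre-B cells and between pre-B and immature B cells. The step log2 ratios were 0.43 (0.06 to 0.79), 0.48 (0.07 to 0.90) and 0.90 (0.61 to 1.19). From pro-B to mature B cells, the Ikzf3 level was 3.51-fold higher (3.03 to 4.08), a log2 ratio of 1.81. It was higher than 94.5% of the genes tested, as follows in part from the choice of the members by such CPM differences. The rank of Ikzf3 by counts within its library went from 728 in pro-B to 376 in pre-B, 220 in immature B and 90 in mature B cells. The FPKM values were 15.07, 5.3, 5.87 and 50.19, so that the mature B library was highest on both scales while pre-B cells lay below pro-B cells by FPKM and above them by CPM.

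**Figure D1:**
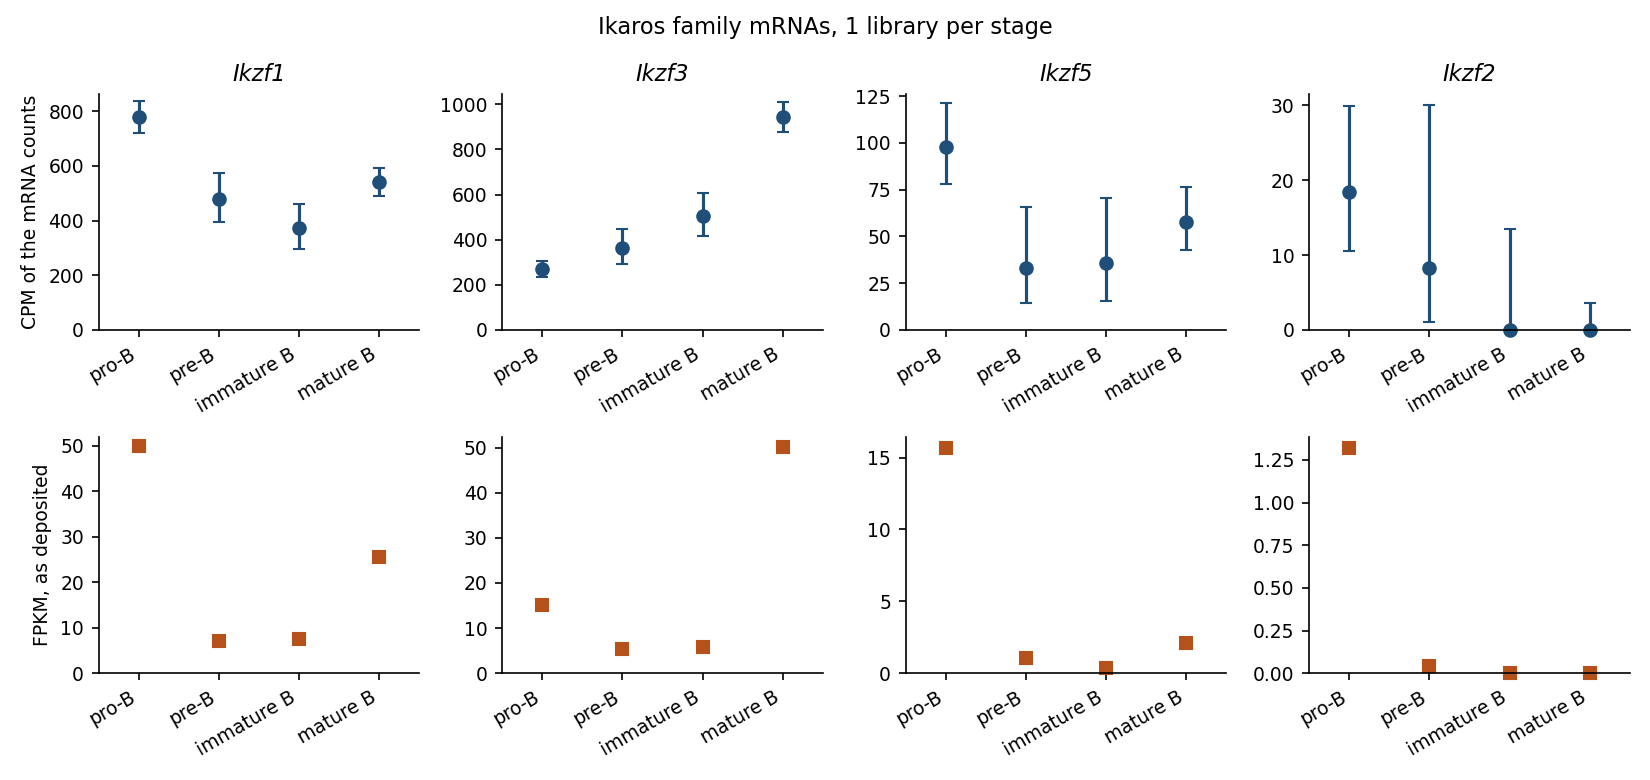
Levels of Ikzf1, Ikzf3, Ikzf5 and Ikzf2 in the 4 libraries, as CPM with exact 95% intervals (upper row) and as deposited FPKM (lower row), with 1 point per stage and a count of 0 drawn up to the floor of 3 counts. Ikzf1 was highest in pro-B cells and Ikzf3 in mature B cells on both scales.

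Ikzf5, encoding Pegasus, was measured with far fewer reads, at 85, 8, 8 and 49 counts in stage order. Its level was 97.9 CPM (78.2 to 121), 33.3 CPM (14.4 to 65.6), 35.8 CPM (15.5 to 70.5) and 57.7 CPM (42.7 to 76.3). The pro-B interval lay above those of the other 3 stages, whose intervals overlapped with one another. Its FPKM values of 15.68, 1.02, 0.34 and 2.09 differed much more between pro-B and mature B cells than its counts did. FPKM per count, set against the median of well-counted genes in the library, was 2.85 for Ikzf5 in pro-B cells and 0.652 in mature B cells, whereas for Ikzf3 it was 1.0 and 0.959. The size of the Ikzf5 difference therefore differed between the deposited measures, and the reason was not tested.

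Ikzf2, encoding Helios, had 16 counts in pro-B cells, 2 at the pre-B stage and 0 at both later stages. The pro-B level was 18.4 CPM (10.5 to 29.9) and the pre-B level 8.33 CPM (1.01 to 30.1). A count of 0 allowed up to 13.4 CPM in immature B and 3.53 CPM in mature B cells, taking 3 counts per library as the floor. Against that floor, Ikzf2 was at least 5.22-fold lower in mature B than in pro-B cells if its 16 pro-B counts are taken as exact, and at least 3.77-fold lower by the exact interval that covers counting error in both libraries. The 7 T and natural killer cell markers moved alongside, with 178 counts in all in the pro-B library, 2 in pre-B, 0 in immature B and 5 in mature B. Gzma with 106 counts, Nkg7 with 38, Ccl5 with 17 and Klrd1 with 15 made up most of the pro-B sum, while of the T-cell genes Cd3g had 2 counts and Cd3e and Cd3d were at 0 there. The part of such cells in the Ikzf2 counts was not tested. Because Hdac1 and Ctbp2, which most cells use, were also listed at 0 in every library, the listed 0 for Ikzf4 may not mean an absent mRNA. Ikzf2 was counted in pro-B and pre-B cells, and its later 0 counts may not mean an absent mRNA either, within the bounds given above.

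The members past a 2-fold difference in each of the 4 comparisons are set beside the share of all genes tested, with Ikzf2 tested only against pro-B cells because it had fewer than 10 counts elsewhere. Between pre-B and pro-B cells, 2 of 4 genes were past 2-fold, Ikzf5 with a log2 ratio of -1.56 (-2.81 to -0.51) and Ikzf2 with -1.15 (-4.31 to 0.94), whereas 47.5% of all genes tested were past 2-fold, 17.9% higher and 29.6% lower. Ikzf1 lay at -0.69 (-1.0 to -0.41) in that comparison, beside a median of -0.35 for all genes. Between immature B and pre-B cells, 0 of 3 genes were past 2-fold, against 37.4% of all genes (18.5% higher, 18.9% lower), and the log2 ratio of Ikzf1 was -0.37 (-0.79 to 0.05). Between mature B and immature B cells, 0 of 3 were past 2-fold, against 46.5% of all genes (24.9% higher, 21.6% lower), with Ikzf1 at 0.54 (0.20 to 0.89) and Ikzf5 at 0.69 (-0.40 to 1.98). Between mature B and pro-B cells, Ikzf3 was higher and Ikzf2 lower, 2 of 4 genes, against 36.9% of all genes (13.3% higher, 23.6% lower). Ikzf5 lay at -0.76 (-1.3 to -0.24) there. These comparisons share libraries and are not independent.

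The steps into pre-B and out of immature B cells changed with the scaling. Scaled to mRNA and lncRNA counts together or by FPKM, 4 of 4 members were past 2-fold lower in pre-B cells relative to pro-B cells, and with DESeq2 size factors 1 of 4. Under the combined total and FPKM, 3 of 3 members were past 2-fold higher in mature B relative to immature B cells, with Ikzf5 at 2.55 and 2.62. Scaled to mRNA and lncRNA counts together, Ikzf3 fell by 1.44 on the log2 scale from pro-B to pre-B cells, and by FPKM it fell by 1.51, both opposite to the CPM ratio. With these scalings the median of all genes moved from -0.35 to -2.22 and -2.09, and the share of genes past 2-fold that were higher in pre-B cells went from 37.6% to 3.14% and 3.84%. From immature B to mature B cells, the share that was higher went from 53.5% to 95.3% and 95.1%. Relative to the median of all genes, Ikzf3 stood above it from pro-B to pre-B cells under all of these scalings. Its ratio between mature B and pro-B cells was past 2-fold under all 5 scalings.

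**Figure D2:**
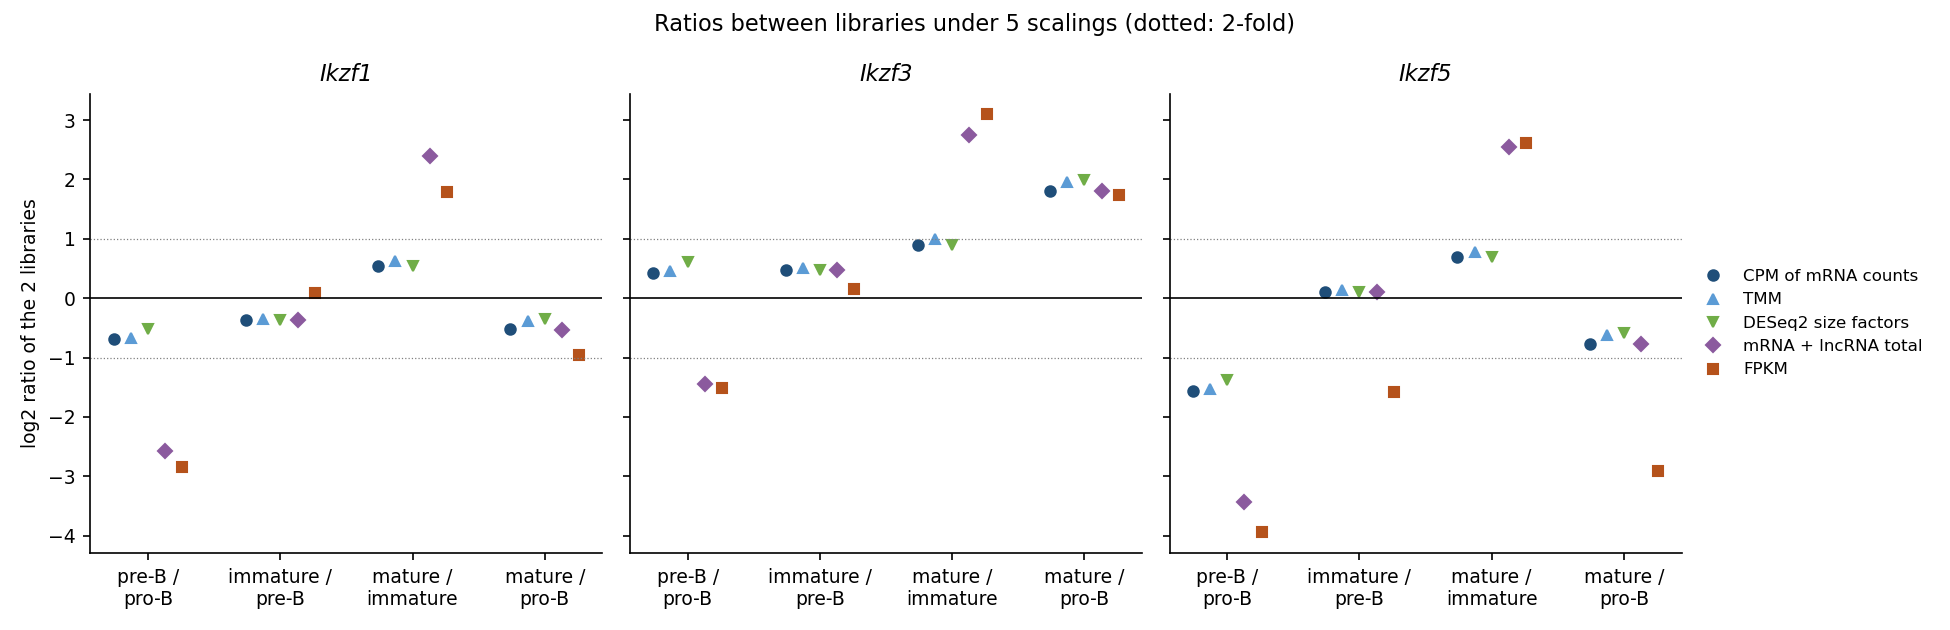
Log2 ratios of Ikzf1, Ikzf3 and Ikzf5 between libraries under 5 scalings, with dotted lines at 2-fold. For Ikzf3 the pre-B over pro-B ratio was 0.43 by CPM and -1.44 when scaled to mRNA and lncRNA counts together, while the 5 values for mature B over pro-B lay close together.

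The quotient of Ikzf3 to Ikzf1 within a library needs no scaling between libraries. In counts it was 0.345 (0.297 to 0.402), 0.754 (0.566 to 1.01), 1.36 (1.02 to 1.83) and 1.75 (1.56 to 1.96) in stage order. The quotient in mature B cells was 5.05 times that in pro-B cells. Counts are not corrected for transcript length, so levels of the 2 genes are compared by FPKM. By FPKM the quotient was 0.302, 0.760, 0.788 and 1.96, which placed Ikzf1 above Ikzf3 in the first 3 stages and Ikzf3 above Ikzf1 in mature B cells, a change of 6.48-fold. Both measures were lowest in pro-B and highest in mature B cells. From pre-B to immature B cells the quotient of counts went up with intervals that narrowly did not overlap, while that of FPKM was 0.760 and 0.788. From immature B to mature B cells the intervals of the counts overlapped, with a change of 1.28-fold (0.945 to 1.74). Of all family counts, Ikzf3 made up 23.1% in pro-B, 41.0% in pre-B, 55.4% in immature B and 61.2% in mature B cells. The share of Ikzf1 went from 66.9% to 54.3%, 40.7% and 35.0%, while Ikzf5 held 8.43% in pro-B cells and between 3.75% and 3.92% later. The members together summed to 1162, 884, 913 and 1539 CPM, highest in mature B cells. Their FPKM summed to 81.93, 13.33, 13.66 and 77.89, highest in pro-B cells.

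**Figure D3:**
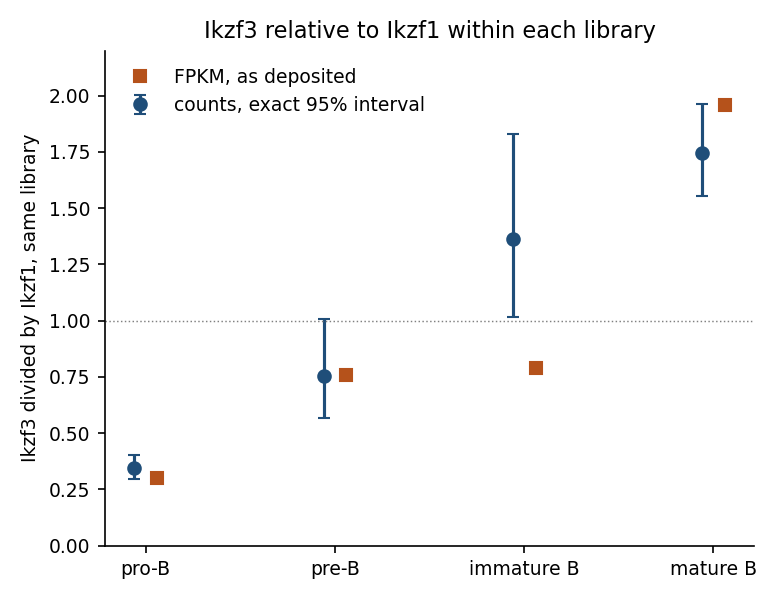
Ikzf3 divided by Ikzf1 within each library, as counts with exact 95% intervals and as deposited FPKM, by stage. Both quotients lay below 1 in pro-B and pre-B cells and above 1 in mature B cells, and they parted in immature B cells at 1.36 and 0.788.

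The exonic Ikzf1 circRNA novel_circ_000420 lay on the plus strand of chromosome 11 at 11700205 to 11707904 in the coordinates of the circRNA table. It spans 7700 bases of the gene and 174 bases after splicing. The submitters' processing notes name mm9, yet 97.4% of the circRNAs lay within 1000 bases of their host gene on GRCm38, as did 5 of 5 from this family. Its back-spliced reads numbered 3 in pro-B, 5 in pre-B, 14 in immature B and 24 in mature B cells, of library totals between 1370 and 1751. As RPM, reads scaled to all back-spliced reads of the library, this was 2190, 2909, 7995 and 15676. The first 2 stages were low with widely overlapping intervals, and the last 2 were high on the RPM scale, ranking 6 and 3 among the circRNAs of their library. The log2 ratio of immature B over pre-B cells was 1.46 (-0.10 to 3.29) and that of mature B over immature B cells 0.97 (-0.04 to 2.04). Scaled to the mRNA total of the library instead, the ratio of mature B over immature B cells was -1.15, the opposite direction and past 2-fold. Mature B cells held 7.16-fold more than pro-B cells (2.17 to 37.1). It was past 2-fold in 2 comparisons. Between mature B and pro-B cells 80.6% of all circRNAs tested were past 2-fold and 36.1% were higher, and between immature B and pre-B cells 71.9% were past 2-fold and 35.9% were higher. Between mature B and immature B cells, where no circRNA of the family was past 2-fold by RPM, 69.5% of all were and 25.4% were higher. A gain at each step was seen in 4.65% of the circRNAs with at least 12 reads. Because novel_circ_000420 was chosen for this gain, that share cannot tell how unusual it is. Since 1128 of 1335 nonzero values in the circRNA table were even, reads may have been counted in pairs, which was not tested, and intervals on such values would then be too narrow.

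The other 4 circRNAs of the family were each found in 1 library, with at most 6 reads, as 80% of all 1005 circRNAs were found in 1 library alone. Assigned to Ikzf1 were novel_circ_000222, at 11754050 to 11772083, with 4 reads, and the intronic novel_circ_000401 at 11691903 to 11694280 with 2 reads, both in pre-B cells. The first lay on the antisense strand, opposite to the gene. Assigned to Ikzf3, also on chromosome 11, was novel_circ_000999 on the antisense strand, opposite to the gene, at 98490286 to 98490685, with 6 reads in pre-B cells. The single-exon novel_circ_000102 of Ikzf3, at 98465477 to 98466988, had 3 reads in immature B cells. All 4 were under the minimum of 10 reads, so no ratio between stages was computed for them. Ikzf2 and Ikzf5 had no circRNA in the table.

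Set against the linear mRNA of the same gene, novel_circ_000420 gave back-spliced reads per 100 Ikzf1 counts of 0.445 (0.0917 to 1.3), 4.34 (1.41 to 10.1), 16.9 (9.22 to 28.3) and 5.24 (3.36 to 7.79) in stage order. The intervals take the linear counts as fixed. The circRNA and the mRNA thus differed in their order of stages, with Ikzf1 mRNA highest where the circRNA was lowest. For comparison, 55 host genes of exonic circRNAs with at least 12 reads were used, in each library those with at least 10 mRNA counts there. Their median quotient was 2.08, 9.52, 9.52 and 1.52, so that the 2 libraries with few mRNA counts stood high for hosts in general. Between mature B and pro-B cells, where mRNA totals were alike, the Ikzf1 quotient was 11.8-fold higher (3.58 to 61.1), with a log2 ratio of 3.56 beside a median of 0.50 over 32 hosts. The 32 hosts had back-spliced reads and at least 10 mRNA counts in both of these libraries. Hosts with 0 back-spliced reads in either were left out, such as Fbxw4 with 0 in pro-B and 14 in mature B cells, and Creb1 with 10 and 0. Of the 32 hosts 37.5% were at least 2-fold higher, and Ikzf1 ranked 1 among them, as follows in part from its choice for the rise of its circRNA.

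**Figure D4:**
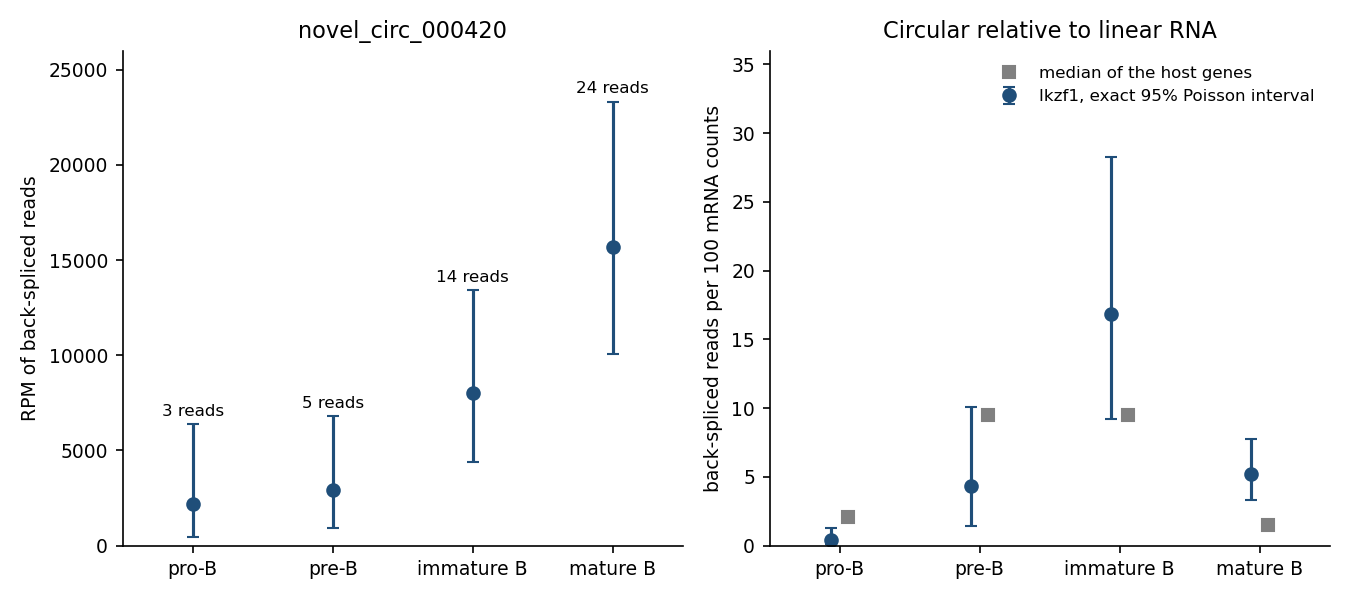
Left, RPM of novel_circ_000420 by stage with exact 95% intervals and read numbers above the points. Right, back-spliced reads per 100 mRNA counts for Ikzf1 and the median over host genes of exonic circRNAs, with Ikzf1 below the median in pro-B cells and above it in mature B cells.

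The genes nearest to Ikzf1 and Ikzf3 in pattern were found by the distance between centred log2(CPM + 1) values over the 4 libraries, among 6942 genes with at least 50 counts in all. Nearest to Ikzf1 were Tmx1, Sf3a3, Rab5b, Fam120a and Rer1, at distances from 0.0672 to 0.0871. Fam120a had 431, 246, 201 and 288 CPM. Tmx1 had only 40.3, 25.0, 17.9 and 27.1 CPM, where 1 count was 4.16 CPM in the pre-B and 4.47 CPM in the immature B library. The distances carry no interval, and whether such small distances exceed counting error was not tested. Nearest to Ikzf3 were Cebpb, 4930523C07Rik, Dennd3, Junb and Usp53, at distances from 0.163 to 0.260. Junb, a subunit of the AP-1 transcription factor, had 490, 737, 1038 and 2169 CPM, and the C/EBP factor gene Cebpb had 25.3, 37.5, 44.7 and 90.7 CPM. By FPKM neither rose at each stage, with 43.22, 17.03, 24.39 and 192.63 for Junb and 2.69, 1.04, 1.26 and 9.69 for Cebpb. Among 86 circRNAs with at least 12 reads, the nearest to novel_circ_000420 was an exonic circRNA of Pax5, the B-lineage commitment factor, novel_circ_000203, with 0, 1, 7 and 8 reads. An Lrp6 circRNA, novel_circ_000617, with 1, 0, 3 and 8 reads and an Fbxw4 circRNA, novel_circ_000891, with 0, 0, 2 and 14 reads followed.

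Ikaros and Aiolos work with the NuRD complex, which couples nucleosome remodelling to histone deacetylation. Of the 12 NuRD genes tested, 0 were higher and 1 lower past 2-fold between mature B and pro-B cells, with a median log2 ratio of -0.34 beside -0.18 for all genes, of which 13.3% were higher and 23.6% lower. The one was Mbd3, a methyl-CpG-binding domain subunit, at -1.06. Chd4, the remodelling ATPase, had 720, 425, 398 and 585 CPM, an order of stages like that of Ikzf1. On the CPM scale, 7 of 12 were lower in pre-B cells than at the pro-B stage (Chd3, Mta1, Mta3, Hdac2, Mbd2, Gatad2a and Gatad2b), with a median of -1.15, beside 29.6% of all genes and their median of -0.35. Among 8 tested between immature B and pre-B cells, Gatad2a was higher and Mta1 and Mbd3 were lower, beside 18.5% and 18.9% of all genes. In mature B against immature B cells 5 of 12 were higher (Mta1, Mta3, Hdac2, Mbd3 and Gatad2b) and Gatad2a was lower, with a median of 0.82, beside 24.9% and 21.6% of all genes and their median of 0.16. Most of these higher calls rest on few immature B counts. Mta3 had 0, so its ratio is a bound, and Hdac2, Mta1 and Mbd3 had 2, 3 and 4. Gatad2b, with 28, lay at 1.01. Low counts also lie behind calls in the lists below, such as Csnk2b with 4 in pre-B and 2 in immature B cells.

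Among other corepressors and remodellers, 2 of 6 genes were lower in mature B than pro-B cells and 0 were higher, beside 23.6% and 13.3% of all genes. Smarca4, the BRG1 ATPase of SWI/SNF complexes, had 2685, 1208, 220 and 303 CPM, a log2 ratio of -3.15 between mature B and pro-B cells. Smarcb1, another SWI/SNF subunit, lay at -1.07 in that comparison. Between pre-B and pro-B cells, 3 of 6 were lower by CPM (Smarca4, Smarcc1 and Sin3a) and 0 higher, beside 29.6% and 17.9% of all genes. Smarca4 and Smarcc1, 2 of 6, were lower again in immature B than in pre-B cells and 0 were higher, beside 18.9% and 18.5% of all genes. Sin3a and Smarcc1, 2 of 6, were higher in mature B than in immature B cells and 0 were lower, beside 24.9% and 21.6% of all genes.

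Cereblon is the substrate receptor of a ubiquitin ligase through which thalidomide analogs degrade Ikaros and Aiolos. Its gene Crbn had 52.0, 238, 194 and 53.9 CPM, high in the 2 libraries with few mRNA counts, while its FPKM of 4.01, 4.81, 3.97 and 4.18 differed little. None of the 5 ligase genes was past 2-fold between mature B and pro-B cells, beside 36.9% of all genes. By CPM, 2 of 5 were lower (Ddb1 and Cul4a) and 1 higher (Crbn) in pre-B than pro-B cells, beside 29.6% and 17.9% of all genes. Between immature B and pre-B cells, 1 of 5 was lower (Rbx1) and 0 higher, beside 18.9% and 18.5%. In mature B against immature B cells, 2 of 5 were higher (Cul4b and Rbx1) and 1 lower (Crbn), beside 24.9% and 21.6%. Casein kinase 2 and protein phosphatase 1 add and remove phosphates on Ikaros. Of their 6 genes, 1 was lower and 0 were higher between mature B and pro-B cells, beside 23.6% and 13.3% of all genes. That one, the phosphatase catalytic subunit gene Ppp1ca, had 292 counts in pro-B, 0 in pre-B, 1.22 in immature B and 135 in mature B cells. By CPM, 4 of 6 were lower and 0 higher in pre-B than pro-B cells, beside 29.6% and 17.9% of all genes. These were the kinase genes Csnk2a1 and Csnk2b and the phosphatase genes Ppp1ca and Ppp1cb. In mature B against immature B cells, 2 of 6 were higher (Csnk2b and Ppp1ca) and 0 lower, beside 24.9% and 21.6% of all genes.

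A further list held genes known to respond to Ikaros or Aiolos in B-cell precursors. Of 13 tested between mature B and pro-B cells, 9 were lower and 2 were higher past 2-fold, beside 23.6% and 13.3% of all genes, with a median log2 ratio of -1.98 beside -0.18 for all genes. The lower genes were those of the surrogate light chain (Igll1, Vpreb1), of receptor gene rearrangement (Dntt, Rag1, Rag2), of interleukin-7 signaling (Il7r), of the cell cycle (Ccnd2, Ccnd3) and of pre-B cell receptor signaling (Blnk). Several of them are stage markers by which B-cell precursors are told apart, and Igll1, Vpreb1 and Dntt had 0 counts in mature B cells, so that their ratios are bounds. The higher genes were Myc, the growth regulator, with 55.3, 16.7, 58.2 and 224 CPM and a log2 ratio of 2.02, and Bcl6, a germinal center repressor, at 1.82. Between pre-B and pro-B cells 9 of 13 were lower by CPM and 1, Rag2, was higher, beside 29.6% and 17.9% of all genes. Rag2 had 109 CPM in pro-B and 316 CPM in pre-B cells, but its FPKM went from 7.41 to 4.21, the opposite direction. Between immature B and pre-B cells 3 of 10 were higher (Myc, Ccnd2 and Bcl6) and 4 lower (Rag1, Rag2, Il7r and Blnk), beside 18.5% and 18.9% of all genes. In mature B against immature B cells 5 of 9 were higher (Myc, Bcl6, Cdkn1b, Blnk and Foxo1) and 4 lower (Rag2, Il7r, Ccnd2 and Ccnd3), beside 24.9% and 21.6% of all genes.

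**Figure D5:**
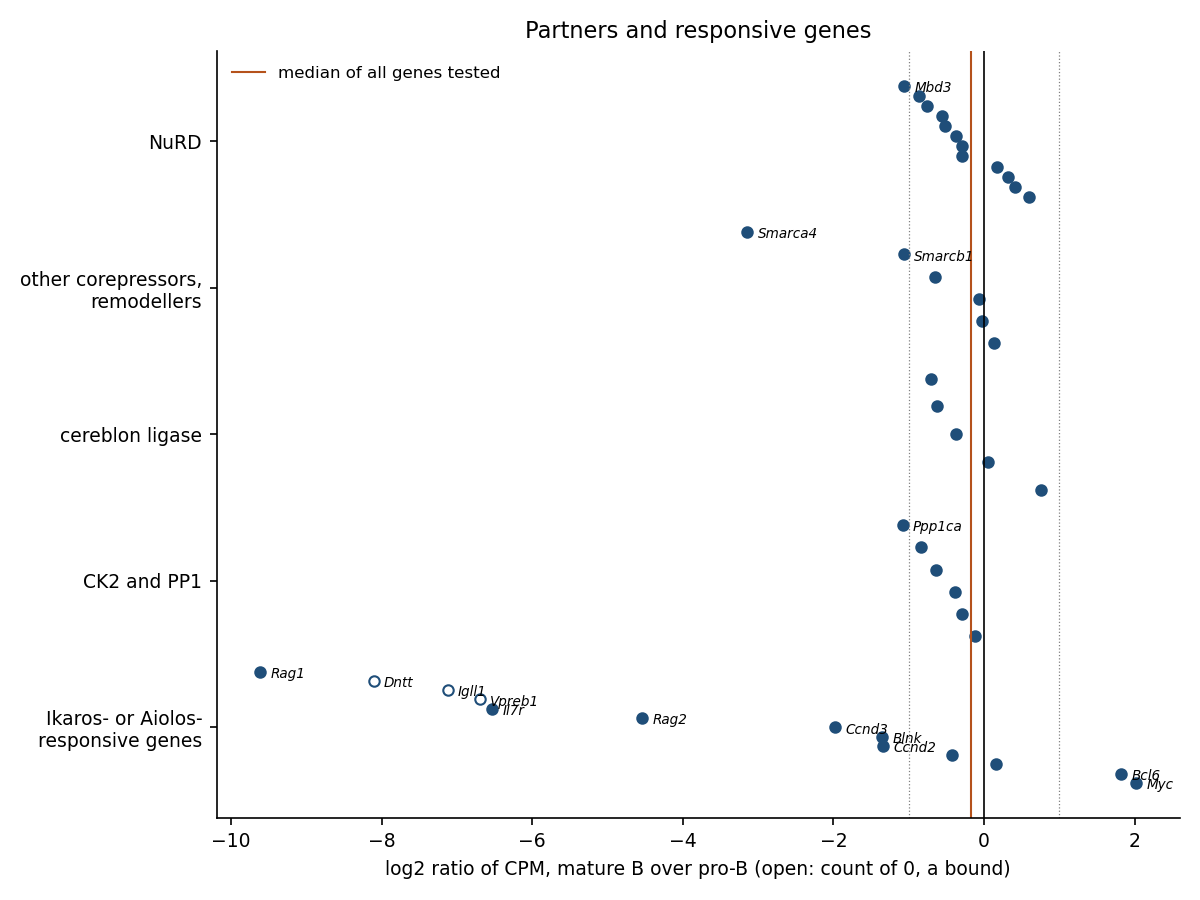
Log2 ratio of CPM between mature B and pro-B cells for the tested genes of the 5 lists, 1 point per gene, with open points for bounds at a count of 0, dotted lines at 2-fold and the median of all genes tested. The partner genes past 2-fold were Mbd3, Smarcb1, Ppp1ca and, at -3.15, Smarca4, while the responsive genes reached up to Myc at 2.02 and their lowest points were Rag1, which had 1 mature B count, and the bounds of Dntt, Igll1 and Vpreb1, whose order below their bounds is unknown.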

How the data were processed

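RNA of 4 B-cell stages was sequenced with 1 library each, and groups follow the labels. The authors cleaned reads, removed rRNA reads, mapped the rest with HISAT2 and estimated expression with StringTie. The deposited mRNA and lncRNA tables hold estimated counts, which need not be whole and were rounded here for intervals, and FPKM values that the authors scaled by length and mapped fragments. The circRNA table holds deposited counts of back-spliced reads found with find_circ, with at least 2 unique reads in a library, and the RPM values that the authors computed from them. The processing notes name Bowtie 0.12.2 and mm9.

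Counts were divided by the column total. Ratios between libraries carry exact Clopper-Pearson 95% intervals, and quotients of circular to linear RNA carry exact Poisson intervals. A gene was tested with at least 10 counts over both libraries and called at 2-fold, with 3 counts in place of 0. No p-value was computed. Alternatives were edgeR 4.0.16 TMM factors, DESeq2 1.42.0 size factors, the mRNA and lncRNA total, FPKM, other count minimums, halved circRNA counts and the mRNA total for circRNAs. Calculations used Python 3.11.15, numpy 2.4.6, pandas 2.3.3 and R 4.3.3, and ratios were tested on simulated data. Named are all family genes and circRNAs, the 5 genes nearest in pattern to Ikzf1 and to Ikzf3, the 3 nearest circRNAs, and list members past 2-fold, with Chd4 chosen after its values were seen. The members and lists were chosen with earlier results of these data known.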

Additional observations from a re-analysis of the deposited data

Results flagged for a closer look

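Beside the mRNA, the lncRNA table listed 2 noncoding transcripts of Ikzf3 that no comparison above used. ENSMUST00000140876 had 17.1 counts in pro-B, 6.24 in pre-B, 0 in immature B and 29.52 in mature B cells. ENSMUST00000153902 had 9.42 counts in mature B cells and 0 in the other stages. They stand out because they exceed the 3 counts that a listed 0 allows. Together they came to 7.34, 7.17, 0 and 4.87 counts per 100 Ikzf3 mRNA counts in stage order, and whether reads were divided between coding and noncoding transcripts of the gene was not tested.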

How the results depend on the processing

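No paired analysis was possible because each stage has 1 library, and for the same reason no replicate could be left out. Scaled to the mRNA and lncRNA total or by FPKM, the log2 ratio from pro-B to pre-B cells was -2.57 and -2.84 for Ikzf1 and reversed to -1.44 and -1.51 for Ikzf3, and it was -3.43 and -3.94 for Ikzf5. From immature B to mature B cells it was 2.40 and 1.78 for Ikzf1 and 2.76 and 3.10 for Ikzf3 and 2.55 and 2.62 for Ikzf5. By FPKM, Ikzf1 lay at 0.10 and Ikzf5 reversed to -1.58 from pre-B to immature B cells, and Ikzf1 lay at -0.96 from pro-B to mature B cells, or at -0.35 with DESeq2 size factors. The Ikzf3 to Ikzf1 quotient by FPKM, chosen after seeing the data, had log2 ratios of 0.051, 1.31 and 2.70 for immature B over pre-B, mature B over immature B and mature B over pro-B cells, against 0.85, 0.36 and 2.34 by counts. With the combined total, 8080 genes were past 2-fold between pre-B and pro-B cells, against 4612, and 7142 between mature B and immature B cells, against 4180. At a minimum of 50 counts the 4 comparisons had 2323, 409, 2042 and 1607 genes past 2-fold, and with halved circRNA reads 5, 4, 5 and 8 of only 8, 8, 8 and 9 circRNAs that passed the minimum, against 34, 46, 41 and 29 of 51, 64, 59 and 36. Halving left 0 family circRNAs past 2-fold between immature B and pre-B cells, against 1, because novel_circ_000420 fell under the minimum with its log2 ratio still 1.46. Per mRNA count, novel_circ_000420 reversed to -1.15 between mature B and immature B cells, which made 1 family circRNA past 2-fold, against 0. The minimums and the halving test fewer features, and the other causes were not tested.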
